A study of Mus musculus with 32 samples.

Results

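The genes described here encode the enzymes of glycolysis from glucose-6-phosphate isomerase to pyruvate kinase, Gpi1, Pfkl, Pfkp, Aldoa, Tpi1, Gapdh, Pgk1, Pgam1, Eno1 and Pkm. These 10 genes were taken by symbol, matched to Ensembl identifiers, from the 41388 genes counted in 32 RNA-seq libraries of primary mouse chondrocytes. Every one of the 10 was well counted, with between 1238 (Pfkp) and 153865 (Pkm) reads per gene and library, and passed the filter on low counts in each comparison. Together they held between 0.499% and 1.58% of a library's counts.

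Glycolysis converts glucose to pyruvate in the cytosol, and the enzymes act in the order in which they are named above. Phosphofructokinase and pyruvate kinase catalyse steps that are hardly reversible in the cell, while the enzymes between them work close to equilibrium. Chondrocytes live in cartilage, which has no blood vessels, and are known to obtain much of their ATP from glycolysis.

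The study asked how chondrocytes respond to IL-1b, an inflammatory cytokine that turns on matrix-degrading enzymes, and how that response depends on Ldha (lactate dehydrogenase A, which turns pyruvate into lactate), Nampt (the rate-limiting enzyme of NAD salvage) and Nfkbiz (IkB-zeta, a nuclear partner of NF-kB). Cells came from C57BL/6 newborn mice and were used without passage. The paper's results call them sternal, and its methods name sterna and ribs. Wild-type cells received no virus and were left untreated or were treated with FX11 (40 µM, an inhibitor of the LDHA enzyme), with IL-1b (10 ng/mL) or with both. Ldha, Nampt and Nfkbiz flox cells received an adenovirus expressing GFP or Cre with GFP, and were then treated with IL-1b (10 ng/mL, 24 h) or left without it. Each of these 16 conditions has 2 libraries. Cre was delivered to cultured flox cells only, so deletion of the gene and exposure to Cre cannot be told apart, and the labels do not say whether the 2 libraries of a condition come from separate cultures.

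Libraries held between 15830658 and 39959888 counts (median 25363482). Their titles follow 2 styles, taken here as 2 library sets: in wild-type, Ldha flox and Nampt flox cells each condition has 1 library of set 1 and 1 of set 2, and all Nfkbiz flox libraries belong to set 2. The targeted genes went with the labels: with Cre, Ldha stood at 70.53 to 119.8 CPM (each gene's count scaled to the library's total) in Ldha flox cells against 875.6 to 1562 with GFP, Nampt at 4.525 to 6.797 against 54.65 to 66.72, and Nfkbiz with IL-1b at 29.05 and 31.95 against 227.6 and 232.5. In wild-type set 2 the library labelled IL-1b held 0.7895 CPM of Mmp3, a matrix-degrading enzyme gene that IL-1b induces, and the library labelled FX11 held 2032 CPM, against 9292 CPM in the set 1 IL-1b library and 0.8048 to 1.083 CPM in untreated cells. These 2 wild-type libraries thus go against their labels. All 12 cartilage markers were detected, and in GFP flox cells their summed level was 78300 to 101000 CPM without and 28100 to 35900 CPM with IL-1b. The summed fibroblast list ranged from 689 to 8950 CPM, muscle from 12.0 to 297, macrophage from 13.2 to 245, endothelium from 2.36 to 26.3, osteoblast from 5.3 to 60.8, adipocyte from 0.181 to 77.1, red cell from 0.291 to 40.2 and cycling cell from 45.2 to 728 CPM. In bulk RNA, fewer cells of a type and less RNA per cell cannot be told apart.

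In the GRCm38 coordinates deposited with the counts, Gpi1 (ENSMUSG00000036427) lies at chr7:34202122-34230289 on the minus strand. Pfkl (ENSMUSG00000020277), liver-type phosphofructokinase, lies at chr10:77986947-78010083, and Pfkp (ENSMUSG00000021196), the platelet type, at chr13:6579768-6648777, both on the minus strand. Aldoa (ENSMUSG00000030695), aldolase A, lies at chr7:126795234-126800751, Tpi1 (ENSMUSG00000023456), triosephosphate isomerase, at chr6:124810586-124814296 and Gapdh (ENSMUSG00000057666) at chr6:125161853-125166467, again on the minus strand. The genes on the plus strand are Pgk1 (ENSMUSG00000062070), phosphoglycerate kinase, at chrX:106187100-106203699, Pgam1 (ENSMUSG00000011752), phosphoglycerate mutase, at chr19:41911871-41918664, Eno1 (ENSMUSG00000063524), alpha-enolase, at chr4:150236721-150248879, and Pkm (ENSMUSG00000032294), muscle-type pyruvate kinase, at chr9:59656368-59679375. Pfkp overlaps Pitrm1, a mitochondrial protease gene on the opposite strand, by the ends of both genes. The counting is not stated to use strand, so reads in such overlaps cannot be told apart. Pitrm1 held 90.2% as many counts as Pfkp, its log2 fold change stayed between -0.11 and 0.09 in the comparisons within a flox line that are given below, and it was called in none of them. Tpi1 overlaps Spsb2 (2.28% of the counts of Tpi1) and Gpi1 overlaps Gm26762 (1.6% of the counts of Gpi1). Several members have near-identical copies that could share reads, of which Eno1b held the most, with 3.2% of the counts of Eno1, followed by Pgam1-ps2 with 1.79% of those of Pgam1.

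The promoters of 3 members are shown because their genes mark the ends of the IL-1b response: over the 3 flox lines the median log2 fold change was highest for Pkm (0.89) and lowest for Eno1 (0.32), and Pfkp, which was chosen after its values were seen, differed most between lines. The sequences are RefSeq's (GRCm38.p6), they end before the first base of the gene model that was counted, and capitals mark the core of the hypoxia response element (ACGTG or GCGTG), the short motif bound by HIF factors, where it lies on the printed strand. Pkm is shown at chr9:59656326-59656367 (plus strand), Eno1 at chr4:150236458-150236707 (plus strand) and Pfkp at chr13:6648778-6649021 (minus strand).
Pkm: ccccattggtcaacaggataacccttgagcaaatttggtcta
Eno1: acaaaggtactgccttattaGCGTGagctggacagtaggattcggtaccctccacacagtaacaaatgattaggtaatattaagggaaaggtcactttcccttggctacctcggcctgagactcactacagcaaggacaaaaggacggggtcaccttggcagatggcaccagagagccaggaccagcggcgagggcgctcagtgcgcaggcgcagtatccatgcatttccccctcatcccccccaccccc
Pfkp: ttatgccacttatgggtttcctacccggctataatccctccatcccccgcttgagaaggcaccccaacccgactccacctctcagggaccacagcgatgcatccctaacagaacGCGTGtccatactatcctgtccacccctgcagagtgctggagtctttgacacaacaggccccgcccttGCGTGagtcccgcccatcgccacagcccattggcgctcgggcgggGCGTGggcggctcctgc

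On the printed strand of these stretches the core occurred 0 times in Pkm, 1 time in Eno1 and 3 times in Pfkp. Over full windows of 300 bases and both strands, 6 of the 10 members held a core (Pfkl, Pfkp, Gapdh, Pgk1, Pgam1 and Eno1), against 43.8% of 32817 promoters of the same length. The GC box GGGCGG was present in 7 of 10 members against 35.6% of promoters. The E-box CACGTG, which contains the core ACGTG, was present in 0 of 10 against 7.15%. These matches are descriptions of letters and not of bound sites.

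Per length of transcript, Pkm and Gapdh were the most abundant members. The median over the 16 conditions was 1090 RPKM (CPM per kilobase of exon) for Pkm and 936 RPKM for Gapdh, followed by Aldoa (498), Tpi1 (323), Eno1 (264), Pgk1 (259) and Pgam1 (150). Gpi1 (63.3 RPKM) and Pfkl (61.4 RPKM) came next, and Pfkp was lowest at 8.81 RPKM. Neighbours in this order overlapped in their ranges over conditions, apart from Pgam1 (96.5 to 204 RPKM) and Gpi1 (40.6 to 91.2), and Pfkl (44.0 to 99.3) and Pfkp (6.0 to 15.2). Each member reached its highest condition mean in the Nfkbiz flox cells with GFP and IL-1b, and the ratio of the highest to the lowest condition mean lay between 1.63 (Eno1) and 3.0 (Pkm). All Nfkbiz flox libraries belong to set 2, and the wild-type IL-1b and FX11 means each hold 1 library that goes against its label. The set 1 wild-type IL-1b library stood above the Nfkbiz flox mean for Gpi1 (471.8 against 410.2 CPM), Pgam1 (401.1 against 373.4) and Eno1 (1964 against 1881). The set 2 library labelled FX11 did so for Gpi1 (456.7), Pfkp (146.6 against 142.9) and Aldoa (2059 against 1987). The enzymes with several genes drew on 1 gene each for most of their RNA: Aldoa gave a median of 99.4% of aldolase RPKM, Pgam1 97.5% of phosphoglycerate mutase, Eno1 95.9% of enolase and Pkm 100% of pyruvate kinase. Phosphofructokinase was mixed, with 74.1% from Pfkl, 16.7% from the muscle type Pfkm and 10.2% from Pfkp.

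**Figure D1:**
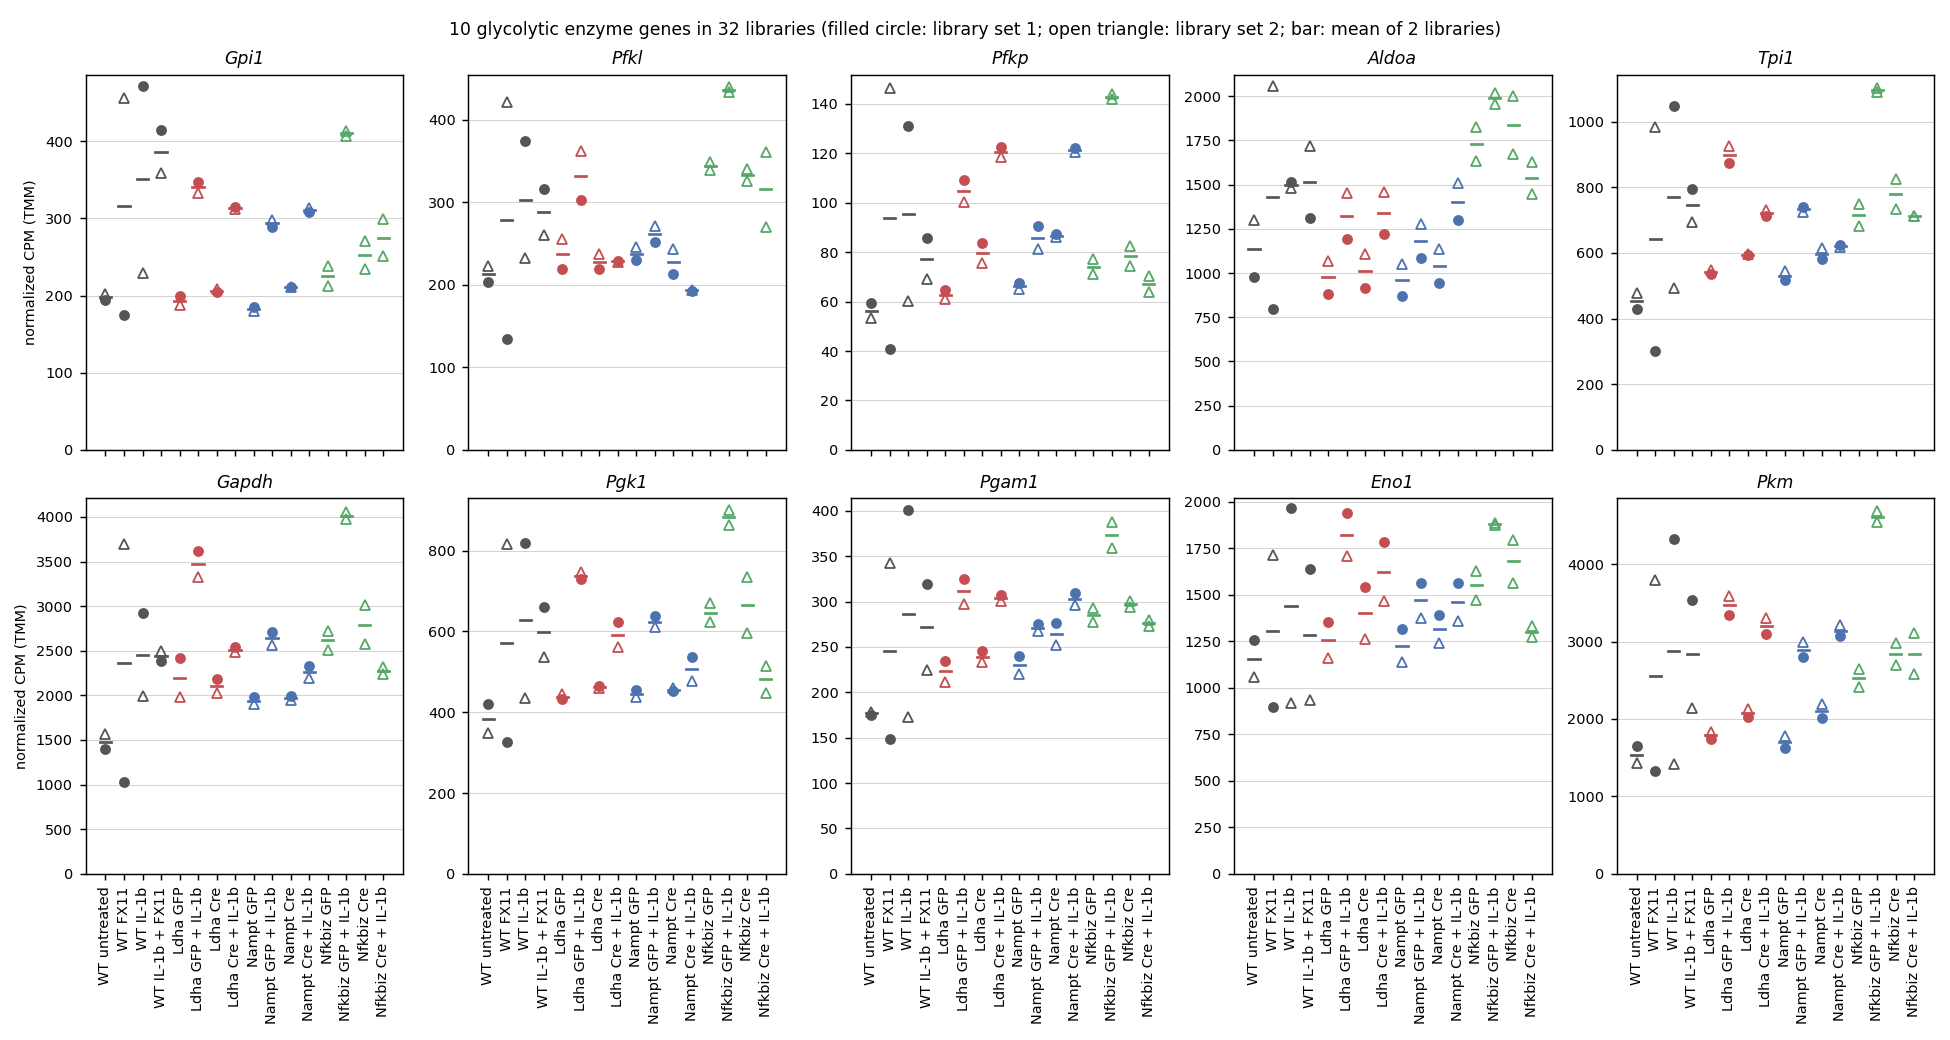
CPM (vertical axis, from 0) of the 10 genes in each of the 32 libraries, by line and treatment, with filled circles for library set 1, open triangles for library set 2 and bars at the mean of 2 libraries. Nfkbiz flox cells with GFP and IL-1b gave the highest mean of every gene. Single wild-type libraries labelled IL-1b or FX11 lie above that mean for Gpi1, Pfkp, Aldoa, Pgam1 and Eno1. The wild-type libraries of a treatment lie far apart, for Pkm at 4328 and 1423 CPM under the label IL-1b.

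IL-1b raised the RNA of all 10 members in flox cells with GFP virus. Across the 3 lines (6 libraries without and 6 with IL-1b, in a fit that accounts for line and library set) Pkm rose 1.86-fold (log2 0.90 ± 0.04, SE) and Gpi1, which makes fructose 6-phosphate, rose 1.77-fold (0.82 ± 0.04). Pfkp rose by 0.72 ± 0.07 on the log2 scale, Tpi1 by 0.64 ± 0.05, Gapdh by 0.61 ± 0.05, Pgk1 by 0.60 ± 0.05, Pgam1 by 0.40 ± 0.04, Eno1 by 0.40 ± 0.05, Pfkl by 0.36 ± 0.05 and Aldoa by 0.35 ± 0.05. The adjusted p-values lay between 3.29e-11 (Pkm) and 1.14e-05 (Aldoa). Of the 14285 genes tested, 27.9% were called higher, which here means an adjusted p-value of at most 0.05, and the median log2 fold change was 0.60 for the members and -0.01 for all genes tested. Gpi1, Aldoa, Pgk1, Eno1 and Pkm were among the metabolic genes that the study itself picked out on some of these libraries, so their direction is not independent evidence.

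Pkm, whose product forms pyruvate, stood at 1744 and 1836 CPM in Ldha flox cells, 1619 and 1778 CPM in Nampt flox cells and 2641 and 2413 CPM in Nfkbiz flox cells without IL-1b. With IL-1b it stood at 3341 and 3590, 2798 and 2990, and 4546 and 4681 CPM in the same order of lines. The 6 libraries with IL-1b did not overlap with the 6 without, and in both conditions the Nfkbiz flox libraries were highest. Gpi1 likewise did not overlap: it stood at 199.4 and 187.8, 185.3 and 180.0, and 238.8 and 212.5 CPM without IL-1b, and at 347.9 and 333.5, 289.5 and 298.5, and 407.0 and 413.3 CPM with it. Pfkp stood at 64.73 and 61.02, 67.49 and 65.18, and 71.13 and 77.12 CPM without IL-1b, and at 109.1 and 100.5, 90.45 and 81.17, and 141.8 and 144.0 CPM with it. These values did not overlap either, with the smallest step in Nampt flox cells and the largest in Nfkbiz flox cells.

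The other 7 members overlapped between the 6 and 6 libraries, and the lines started at different levels. Within each line, both libraries with IL-1b lay above both without it. How many of all genes lay clear in this way, over the lines or within each line, is not given here. These counts thus have no background beside them. Aldoa, which splits fructose 1,6-bisphosphate, stood at 882.1 and 1069, 869.1 and 1051, and 1827 and 1634 CPM without IL-1b, and at 1192 and 1454, 1083 and 1279, and 1954 and 2020 CPM with it. The Nfkbiz flox libraries without IL-1b were thus above all 4 libraries of the other lines with it. Gapdh ranged from 1899 to 2720 CPM without IL-1b and from 2569 to 4056 with it. Pgk1, the first enzyme of the pathway to make ATP, ranged from 431.9 to 669.3 CPM without and from 611.5 to 900.6 with IL-1b, and Tpi1 from 517.6 to 749.0 and from 725.6 to 1103 CPM. The ranges without and with IL-1b were 1140 to 1627 and 1377 to 1937 CPM for Eno1, 211.6 to 293.2 and 267.2 to 387.3 CPM for Pgam1, and 219.4 to 348.7 and 252.4 to 439.4 CPM for Pfkl.

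Line by line, with 2 libraries against 2, 9 members were called higher in Ldha flox cells (14.5% of 15882 genes were), 8 in Nampt flox cells (17.7% of 16138) and 8 in Nfkbiz flox cells (15.2% of 15358), and none was lower. The members' median log2 fold change was 0.72, 0.47 and 0.55, against 0.00 for all genes tested in each line. Aldoa was called in none of the 3 lines (0.47, 0.36 and 0.22, adjusted p-values 0.0509, 0.0583 and 0.21), Pfkl was not called in Nampt flox cells (0.20, 0.0786) and Eno1 was not called in Nfkbiz flox cells (0.30, 0.0627). Aldoa was also the member that differed most between library sets: it was higher in set 2 than in set 1 in 8 of 8 Ldha and Nampt flox conditions, by a mean of 0.26 on the log2 scale, while Eno1 was lower in set 2 in 8 of 8, by a mean log2 difference of -0.22. Within sets 1 and 2, the log2 ratio of the CPM of Aldoa with IL-1b to that without it was 0.43 and 0.44 in Ldha flox cells and 0.32 and 0.28 in Nampt flox cells. With the library set as a replicate block, 10 members were called in Ldha flox cells and 10 in Nampt flox cells, Aldoa at adjusted p-values of 1.14e-06 and 1.04e-11. The block lowered the standard errors, in Nampt flox cells to 0.028 to 0.055 against 0.053 to 0.132. The share of all genes called with the block is not given here, so these counts have no background beside them. In Nfkbiz flox cells 5 members were called without GFP replicate 2 and 5 without GFP plus IL-1b replicate 1, while Gpi1, Pfkp, Tpi1, Gapdh and Pkm were called whichever library was left out. A model of all 32 libraries, whose standard errors were 0.28 to 0.39 for these 3 comparisons against 0.05 to 0.16 in the fits within a line, called none of the members, and without the 2 doubted wild-type libraries it called 9, 6 and 7.

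**Figure D2:**
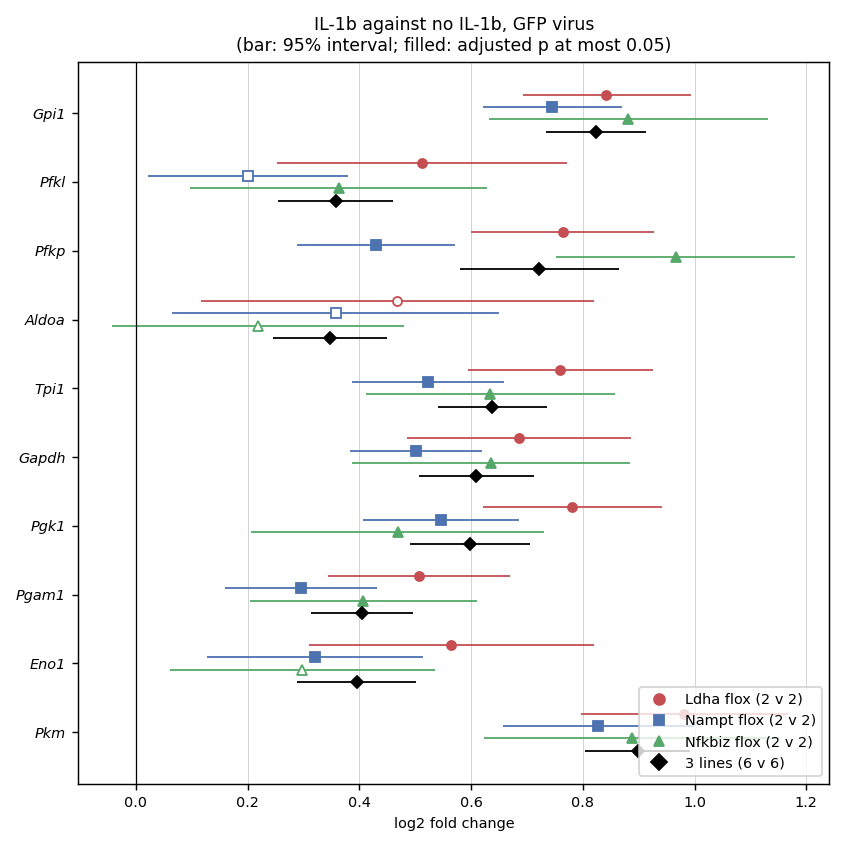
Log2 fold change with IL-1b (horizontal axis) of the 10 genes in flox cells with GFP virus, by line (2 libraries against 2) and over the 3 lines (6 against 6), with bars for 95% intervals and filled symbols where the adjusted p-value was at most 0.05. All estimates lie above 0, Pkm and Gpi1 furthest in the combined fit, and Aldoa is open in each single line.

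The size of the IL-1b response was compared between lines in a model of the 24 flox libraries. No member passed the test between Ldha and Nampt flox cells (0.012% of 16729 genes did), where the differences lay between 0.10 and 0.33 on the log2 scale, each larger in Ldha flox cells. By edgeR 5 members had an unadjusted p-value under 0.05 there, and DESeq2 and voom called 0. Between Ldha and Nfkbiz flox cells none was called either (2.41% of genes were; 3 members had an unadjusted p-value under 0.05, DESeq2 called 0 and voom 2). Between Nampt and Nfkbiz flox cells 1 member differed: the rise of Pfkp was smaller in Nampt flox cells by a log2 difference of -0.52 ± 0.10 (SE, adjusted p-value 0.00332), where 2.67% of genes were lower.

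Of 28 other glycolytic and flanking genes, 20 were tested over the 3 lines, 7 rose, 8 fell and the median log2 fold change was -0.03, where 27.9% of all genes tested were higher and 28.3% lower. Those that rose included both main hexokinases, which trap glucose in the cell (Hk1 by 0.92 and Hk2 by 0.67 on the log2 scale), Pgm1 (0.90, which links glycogen to glycolysis), Ldha (0.63), Pdk1 (0.61, which inhibits pyruvate dehydrogenase), Pgam2 (0.78) and Pcx (0.43). Those that fell included Ldhb (-0.77), the gluconeogenic genes Fbp1 (-1.52) and Pck2 (-0.84), the pyruvate dehydrogenase genes Pdha1 (-0.32) and Pdhb (-0.38), and other isoforms of members, Pfkm (-0.35) and Eno3 (-0.60), besides Adpgk (-0.17).

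Without IL-1b, Cre went with higher Pfkp in Ldha and Nampt flox cells and with no call in Nfkbiz flox cells. Both Cre libraries lay clear of both GFP libraries for 5 of 10 members in Ldha flox cells (Gpi1, Pfkp, Tpi1, Pgk1 and Pkm) and for 5 of 10 in Nampt flox cells (Gpi1, Pfkp, Tpi1, Pgam1 and Pkm). The share of all genes that lay clear in this way is not given here for any line. These counts are thus not read as an effect of Cre. In Ldha flox cells 1 of 10 was called higher (3.36% of genes were), namely Pfkp, at 83.78 and 75.79 CPM with Cre against 64.73 and 61.02 with GFP (log2 0.34 ± 0.07, SE, adjusted p-value 0.0271). In Nampt flox cells 3 were called higher (8.32% of genes were): Pfkp, at 87.41 and 86.09 against 67.49 and 65.18 CPM (0.39 ± 0.06), Pkm, at 2014 and 2195 against 1619 and 1778 CPM (0.31 ± 0.08), and Gpi1, at 211.8 and 210.7 against 185.3 and 180.0 CPM (0.21 ± 0.06). In each of these, both Cre libraries were above both GFP libraries. The summed cartilage list (12 of 12 markers detected) stood at 57000 to 58100 CPM with Cre against 79300 to 80300 with GFP in Ldha flox cells and at 53700 to 55300 against 78300 to 78800 CPM in Nampt flox cells. In the same order, the endothelium list of 4 genes stood at 10.3 to 11.0 against 3.29 to 3.57 and at 13.9 to 14.0 against 3.58 to 4.26 CPM. The fibroblast list stood at 4920 to 4970 against 5520 to 5580 and at 3870 to 3880 against 4610 to 4710 CPM. The osteoblast list stood at 25.9 to 26.2 against 29.5 to 35.5 and at 17.1 to 17.4 against 30.4 to 32.2 CPM. The muscle list stood at 72.2 to 77.3 against 85.7 to 95.8 and at 92.5 to 94.3 against 110 to 118 CPM. The part of these lists in the result was not tested. In Nfkbiz flox cells 0 of 10 were called (0.26% of genes were; 0 members had an unadjusted p-value under 0.05, and DESeq2 and voom called 0), and 8 of 10 overlapped. The difference of the Cre effects between Ldha and Nampt flox cells passed the test for no member (0.0897% of genes did), and neither did that between Ldha and Nfkbiz flox cells (1.88% of genes did). At an unadjusted p-value under 0.05 there were 0 and 1 members, and DESeq2 and voom called 0 in both. With the library set as a block, Pkm was also called in Ldha flox cells (adjusted p-value 0.00779), and 7 members in Nampt flox cells, adding Aldoa, Tpi1, Pgam1 and Eno1. The share of all genes called with the block is not given here. The call in Ldha flox cells was lost (0 members) without any 1 of the 4 libraries, and 1 member was left in Nampt flox cells without Cre replicate 2 or without GFP replicate 1.

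With IL-1b, all 10 members were lower in Nfkbiz flox cells with Cre than with GFP, where 9.2% of 15358 genes were lower. The members' median log2 fold change was -0.61, against -0.01 for all genes tested. The largest difference was that of Pfkp, which stood at 63.82 and 70.52 CPM with Cre and IL-1b against 141.8 and 144.0 with GFP and IL-1b (log2 -1.10 ± 0.10, SE, adjusted p-value 8.8e-06). With Cre its level under IL-1b was not above that without IL-1b (82.32 and 74.55 CPM), whereas with GFP it rose from 71.13 and 77.12 CPM.

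5 further members are enzymes of the steps from triosephosphate to pyruvate. Pgk1 stood at 514.5 and 448.8 CPM with Cre and IL-1b against 863.9 and 900.6 with GFP and IL-1b (-0.88 ± 0.12), Gapdh at 2316 and 2238 against 3975 and 4056 (-0.83 ± 0.12) and Pkm at 2584 and 3106 against 4546 and 4681 (-0.71 ± 0.12). Tpi1 stood at 711.8 and 712.4 against 1090 and 1103 CPM (-0.63 ± 0.10) and Eno1, which makes phosphoenolpyruvate, at 1274 and 1331 against 1877 and 1885 CPM (-0.54 ± 0.11). Their adjusted p-values lay between 0.000293 (Pgk1) and 0.00445 (Eno1), and in each the 2 libraries with Cre lay below the 2 with GFP.

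The other 4 fell as well. Gpi1 stood at 251.2 and 299.3 CPM with Cre and IL-1b against 407.0 and 413.3 with GFP and IL-1b (-0.59 ± 0.11, adjusted p-value 0.00343). Pfkl stood at 270.4 and 360.8 against 439.4 and 433.2 CPM (-0.48 ± 0.12, 0.0173), Pgam1 at 273.0 and 280.2 against 387.3 and 359.5 CPM (-0.44 ± 0.09, 0.00562) and Aldoa at 1445 and 1627 against 1954 and 2020 CPM (-0.38 ± 0.12, 0.0463). The 2 Cre libraries differed from each other most for Pfkl and Gpi1, and none of the 4 genes overlapped between virus groups. How many of all genes lay clear between these groups is not given here, for these or the members above. Among the other glycolytic genes 20 were tested, of which 6 fell (Hk1 -0.81, Hk2 -0.71, Ldha -0.82, Pgm1 -1.03, Pdk1 -1.01, Aldoc -1.41) and 3 rose (Eno2 0.68, Eno3 0.94, Ldhb 0.83), where 8.14% of all genes tested were higher. The summed cartilage list stood at 39100 to 42600 CPM with Cre and IL-1b against 33600 to 35900 with GFP and IL-1b (12 of 12 markers detected), and the cycling list of 3 genes at 310 in both Cre libraries against 152 to 168 CPM. The endothelium list of 4 genes (2 of them above 1 CPM) stood at 6.61 to 7.65 against 3.24 to 4.26 CPM, the muscle list of 8 genes (2 of them above 1 CPM) at 19.7 to 21.8 against 12.0 to 14.4 CPM, the fibroblast list of 6 genes at 767 to 847 against 689 to 706 CPM and the osteoblast list of 3 genes at 7.7 to 8.85 against 5.3 to 6.92 CPM. The part of these lists in the result was not tested. Without GFP plus IL-1b replicate 1, 6 members were called, and the calls of Pfkl, Aldoa, Pgam1 and Eno1 were the ones lost in that fit. A model of all 32 libraries called 0, with the estimates still between -1.08 and -0.36.

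In Ldha and Nampt flox cells with IL-1b, the calls for Cre were mixed. The same 4 members were called lower in both lines, and Pfkp was called higher in both. How many of all genes were called the same way in both lines is not given here. In Ldha flox cells 5 of 10 were called and in Nampt flox cells 6 of 10. In either direction 33.8% of 15882 and 48.4% of 16138 genes were called. These shares were thus near the background and are not read as a result about the members. Pfkl stood at 228.9 and 227.6 CPM with Cre and IL-1b against 302.8 and 361.6 with GFP and IL-1b in Ldha flox cells (log2 -0.51 ± 0.12, SE, adjusted p-value 0.00744), and at 192.6 and 193.7 against 252.4 and 271.7 CPM in Nampt flox cells (-0.44 ± 0.08, 0.00112). Pfkp, its sister gene, stood at 122.7 and 118.4 against 109.1 and 100.5 CPM in Ldha flox cells (0.24 ± 0.07, 0.0306) and at 122.1 and 120.4 against 90.45 and 81.17 CPM in Nampt flox cells (0.50 ± 0.06, 7.36e-05). Neither gene overlapped between the virus groups, and they moved in opposite directions. How many of all genes lay clear between these groups is not given here.

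The other members called lower in both lines were Gapdh, Pgk1 and Tpi1. Gapdh stood at 2544 and 2484 CPM with Cre and IL-1b against 3616 and 3330 with GFP and IL-1b in Ldha flox cells (-0.43 ± 0.09) and at 2334 and 2194 against 2711 and 2569 CPM in Nampt flox cells (-0.22 ± 0.05). Pgk1 stood at 622.3 and 560.7 against 728.8 and 747.9 CPM (-0.29 ± 0.07) and at 537.6 and 478.3 against 637.5 and 611.5 CPM (-0.30 ± 0.06), and Tpi1 at 712.2 and 731.4 against 872.8 and 924.0 CPM (-0.28 ± 0.07) and at 625.1 and 616.5 against 738.9 and 725.6 CPM (-0.24 ± 0.06). In all of these both Cre libraries were lower. Pgam1 rose in Nampt flox cells (310.0 and 296.4 against 275.1 and 267.2 CPM, 0.16 ± 0.06, adjusted p-value 0.0475), and this call was lost without any 1 of the 4 libraries. Pkm and Gpi1, which had the largest IL-1b response, showed no call in either line (Pkm -0.08 and 0.12, Gpi1 -0.09 and 0.08).

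The difference of the Cre effects between Ldha and Nampt flox cells passed the test for no member (0.52% of genes did; 1 member had an unadjusted p-value under 0.05, and DESeq2 and voom called 0). The summed cartilage list stood at 15200 to 16900 CPM with Cre and IL-1b against 29200 to 29300 with GFP and IL-1b in Ldha flox cells and at 16500 to 17400 against 28100 to 29200 CPM in Nampt flox cells. In the same order, the endothelium list of 4 genes stood at 16.3 to 21.1 against 4.75 to 5.18 and at 22.4 to 26.3 against 6.68 to 7.27 CPM. The fibroblast list stood at 2570 to 2700 against 4070 to 4130 and at 2270 to 2290 against 3480 to 3490 CPM. The osteoblast list stood at 9.39 to 10.7 against 19.8 to 20.5 and at 7.55 to 8.07 against 11.8 to 12.1 CPM. The macrophage list stood at 26.2 to 26.8 against 32.2 to 33.4 and at 20.6 to 20.7 against 23.9 to 28.8 CPM. The muscle list stood at 30.8 to 33.4 against 36.2 to 38.5 and at 57.1 to 60.8 against 61.7 to 62.5 CPM. The part of these lists in the result was not tested. In Ldha flox cells 1 member was called without GFP plus IL-1b replicate 2, 2 without Cre plus IL-1b replicate 1 and 3 without Cre plus IL-1b replicate 2, and Gapdh was the member called in each. With the library set as a block, Eno1 was also called in Ldha flox cells (adjusted p-value 0.0415) and Aldoa and Pkm in Nampt flox cells (1.54e-08 and 0.000282). The share of all genes called with the block is not given here.

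**Figure D3:**
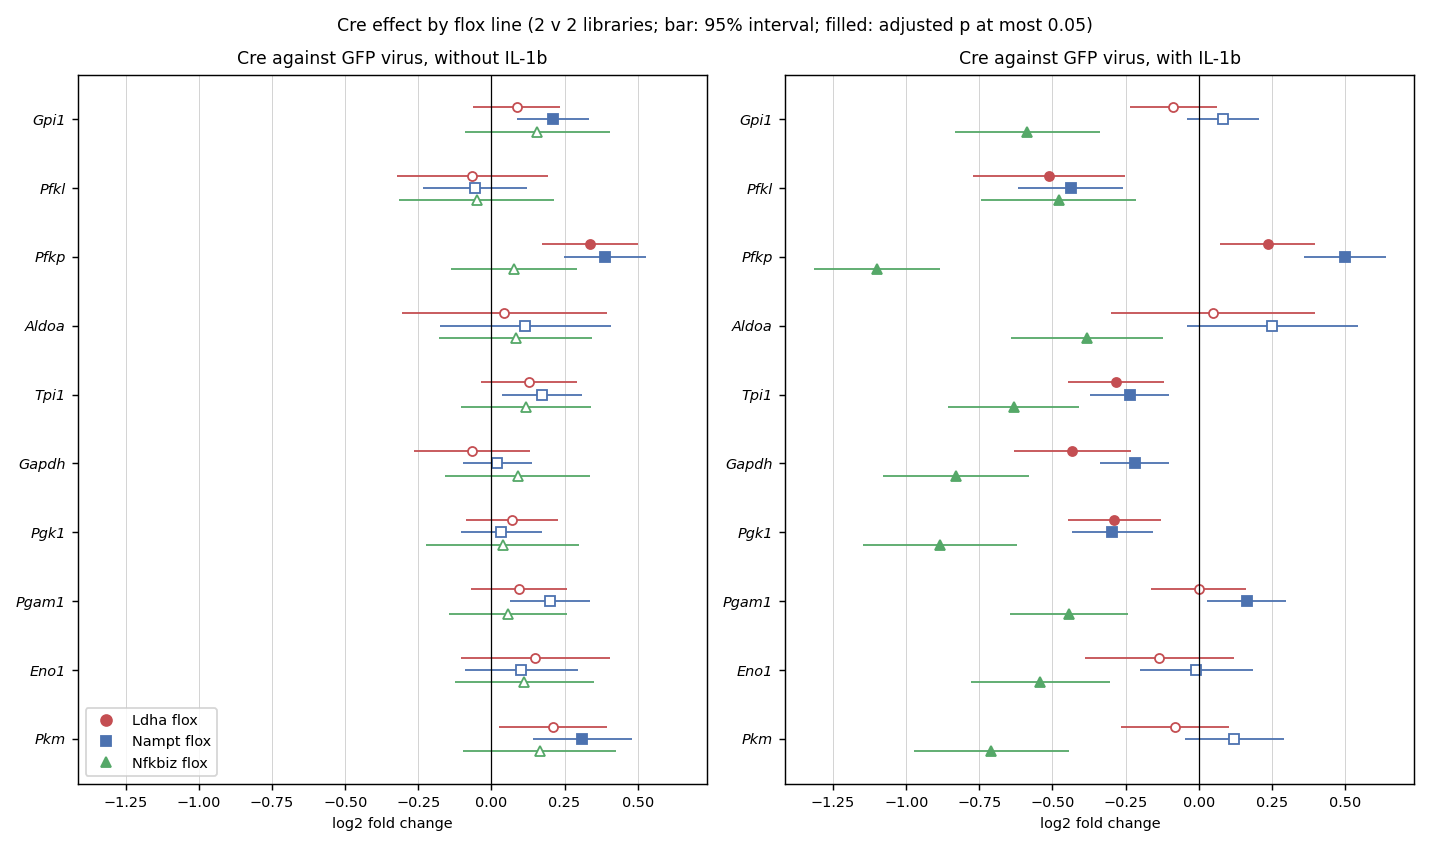
Log2 fold change of Cre against GFP (horizontal axis) of the 10 genes without and with IL-1b, by flox line (2 libraries against 2), with bars for 95% intervals and filled symbols where the adjusted p-value was at most 0.05. With IL-1b all 10 estimates of Nfkbiz flox cells lie below 0, down to -1.10 for Pfkp, whereas Pfkp lies above 0 in Ldha and Nampt flox cells.

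The Cre effect with IL-1b differed between Ldha and Nfkbiz flox cells for 9 of 10 members, each less negative or more positive in Ldha flox cells, where 12.9% of 16729 genes differed in that direction. With GFP and IL-1b the fibroblast list stood at 4070 to 4130 CPM in Ldha against 689 to 706 in Nfkbiz flox cells. The cycling list stood at 621 to 723 against 152 to 168 CPM. The muscle list stood at 36.2 to 38.5 against 12.0 to 14.4, the osteoblast list at 19.8 to 20.5 against 5.3 to 6.92 CPM. The endothelium list stood at 4.75 to 5.18 against 3.24 to 4.26 CPM. The cartilage list (29200 to 29300 against 33600 to 35900 CPM) and the macrophage list (32.2 to 33.4 against 47.7 to 50.9 CPM) were higher in Nfkbiz flox cells. The part of these lists was not tested. The difference was 1.30 ± 0.10 (log2, SE, adjusted p-value 1.1e-09) for Pfkp and lay between 0.32 (Tpi1) and 0.59 (Pkm) for the other 8. Pfkl did not pass the test (-0.06, 95% interval -0.33 to 0.21). The response to IL-1b itself was smaller with Cre than with GFP by the interaction term for 8 of 10 members in Nfkbiz flox cells (3.49% of genes had a lower interaction), for 2 in Ldha flox cells (Tpi1 and Pgk1; 5.52% of genes) and for 4 in Nampt flox cells (Pfkl, Tpi1, Gapdh and Pgk1; 9.94% of genes). In Nfkbiz flox cells the interaction was -1.18 ± 0.14 for Pfkp and lay between -0.92 (Pgk1) and -0.50 (Pgam1) for the others called, and only Pfkl (-0.43) and Aldoa (-0.47) were not called. As a ratio of mean CPM, the median log2 response to IL-1b over the members was 0.53 with GFP and -0.18 with Cre in Nfkbiz flox cells, 0.70 and 0.35 in Ldha flox cells and 0.41 and 0.20 in Nampt flox cells.

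These interaction counts moved with single libraries. In Nfkbiz flox cells 1 member, Pfkp, was called without GFP plus IL-1b replicate 2, 2 members without GFP plus IL-1b replicate 1, 2 without GFP replicate 2 and 5 without Cre replicate 2. In Ldha flox cells 0 were called without either Cre replicate or without GFP plus IL-1b replicate 2, and 1 was called without any other library but GFP plus IL-1b replicate 1. In Nampt flox cells 1 was called without Cre replicate 2, without Cre plus IL-1b replicate 2 or without GFP plus IL-1b replicate 2, and 2 without GFP replicate 1. With the library set as a block, 6 members were called in Ldha flox cells and 7 in Nampt flox cells. The share of all genes called with the block is not given here.

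The make-up of phosphofructokinase RNA is described next, without a test. In Ldha flox cells the share of Pfkp in the summed RPKM of Pfkl, Pfkm and Pfkp was 10.0% and 8.46% with GFP, 12.7% and 10.4% with GFP and IL-1b, 12.4% and 10.9% with Cre, and 17.0% and 16.7% with Cre and IL-1b. In Nampt flox cells it was 9.84% and 9.18%, 12.6% and 11.0%, 13.1% and 11.8%, and 18.9% and 18.4% in the same order. The share was thus highest with Cre and IL-1b in both lines. In Nfkbiz flox cells it was 7.24% and 8.00% with GFP, 11.8% and 12.0% with GFP and IL-1b, 8.83% and 7.61% with Cre, and 8.31% and 7.09% with Cre and IL-1b. Here the libraries with GFP and IL-1b stood above all others.

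**Figure D4:**
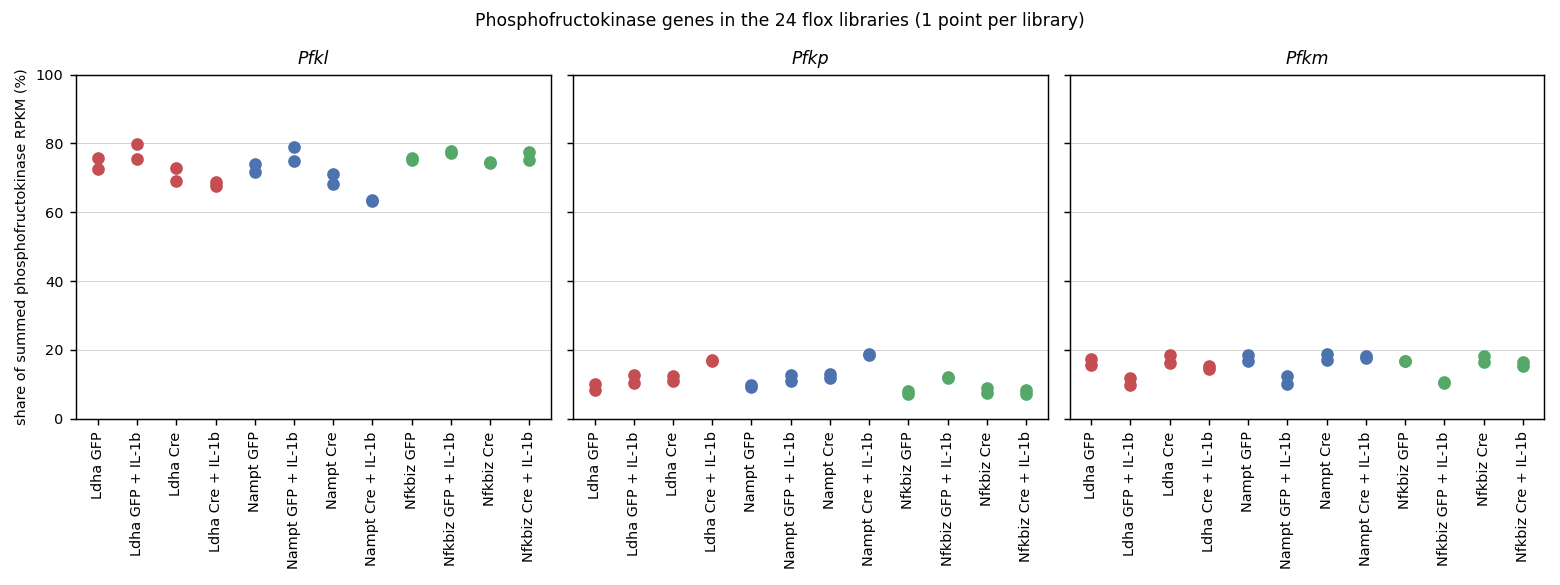
Share of Pfkl, Pfkm and Pfkp in their summed RPKM (vertical axis, percent) in the 24 flox libraries, 1 point per library. The share of Pfkp is highest with Cre and IL-1b in Ldha flox (16.7% and 17.0%) and Nampt flox cells (18.4% and 18.9%), and with GFP and IL-1b in Nfkbiz flox cells (11.8% and 12.0%).

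In wild-type cells no gene at all passed the test in any comparison, so the members could not be told apart from no change: 0% of 15463 genes were called for IL-1b, 0% for FX11, 0% for IL-1b with FX11 against untreated cells and 0% for IL-1b with FX11 against IL-1b. At an unadjusted p-value under 0.05 there were 153, 68, 860 and 101 genes, none of them a member, and DESeq2 called 6, 2, 150 and 1 genes, again without a member. The members' median log2 fold changes were 0.72, 0.56, 0.63 and -0.06 as labelled, with standard errors from 0.47 to 0.69.

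The ratios for FX11 had opposite signs in the library sets as labelled, and those for IL-1b were positive for 10 of 10 members in set 1 and for 7 of 10 in set 2. In set 1, Pkm stood at 1647 CPM untreated, 1323 with FX11, 4328 with IL-1b and 3537 with both, and in set 2 at 1433 untreated, 3798 in the library labelled FX11, 1423 in the library labelled IL-1b and 2144 with both. Gpi1 stood at 194.7, 174.9, 471.8 and 414.5 CPM in set 1 and at 202.3, 456.7, 229.8 and 358.4 CPM in set 2, in the same order of labels. Within set 1 the log2 ratio of IL-1b to untreated lay between 0.64 and 1.39 over the members and that of FX11 between -0.59 and -0.15, whereas within set 2 it lay between -0.20 and 0.35 for the label IL-1b and between 0.66 and 1.46 for the label FX11. Without these 2 libraries, which leaves 1 library each with IL-1b and with FX11, the fitted log2 fold change with IL-1b was positive for all 10 members, from 0.40 to 1.48 (Pkm), and that with FX11 was negative for all 10, from -0.67 to -0.20. None was called, and 1, 0, 1 and 0 of 15270 genes were. For FX11 added to IL-1b, Pfkp, at 85.55 and 69.04 CPM against 130.9 CPM, had the most negative estimate (-0.75, adjusted p-value 1.0), and the other members lay between -0.60 and 0.01.

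**Figure D5:**
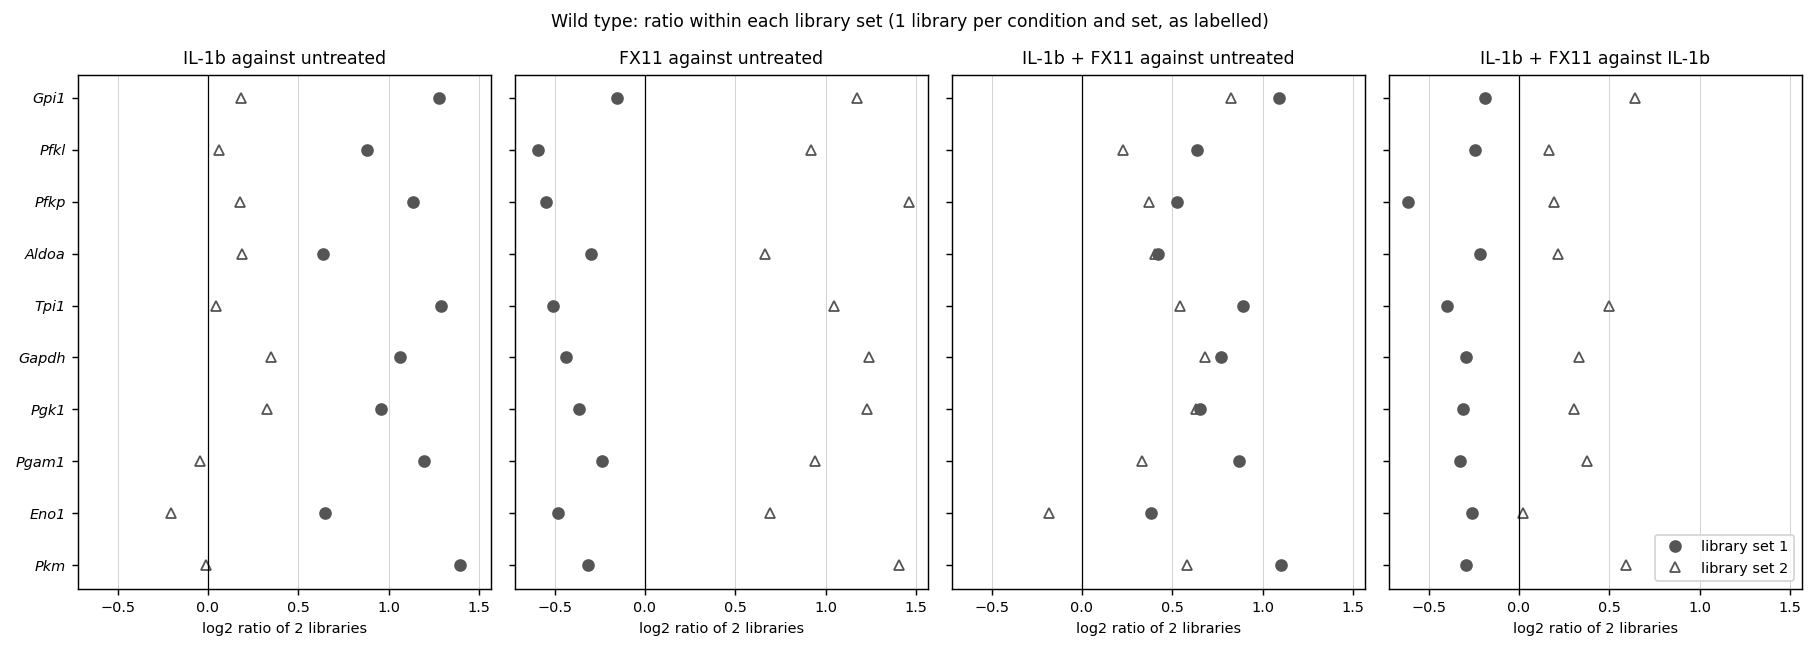
Log2 ratio of 2 libraries (horizontal axis) of the 10 genes for 4 wild-type comparisons, with 1 ratio per library set as labelled. The ratios for IL-1b lie between 0.64 and 1.39 in set 1 and between -0.20 and 0.35 in set 2, and those for FX11 are all negative in set 1 and all positive in set 2.

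The members' levels over the 16 conditions were correlated to differing degrees, and no r of pairs of other genes is given beside them. Pearson's r of their log2 levels lay between 0.26 and 0.96 over the 45 pairs (median 0.76), over conditions that share lines, library sets and treatments. The 16 conditions include wild type labelled IL-1b and wild type labelled FX11, each of which holds a library that goes against its label. Tpi1 was closest to the mean of the other 9 (0.97) and Pfkl (0.71) and Pfkp (0.73) were farthest from it. Of 16722 other genes, those closest to the mean of the members were Hk1 (0.96), Fam162a (0.95, a mitochondrial protein gene known as a HIF target), Tmem251 (0.94), Mif (0.94, a cytokine gene) and Bnip3l (0.93, a mitophagy receptor gene).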

How the data were processed

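RNA was depleted of ribosomal RNA, and the authors mapped reads to GRCm38 (Ensembl release 76) and counted uniquely mapped reads for each gene. The submitters' processing notes name STAR 2.0.4b and featureCounts 1.45, the paper's methods name other versions, and strand use in counting was not given in the sources used here. The deposited count per gene is not normalized. The deposited CPM equals a gene's count over the sum of its library, scaled, and the deposited RPKM equals that CPM per kilobase of exon. Both held within an absolute difference of 1e-06 in 32 of 32 libraries. The CPM and RPKM printed here are not the deposited ones. They were computed from the counts without ribosomal RNA genes and scaled by TMM factors over all 32 libraries (0.9299 to 1.138). They were used for levels and shares, and counts for tests.

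Counts were tested with edgeR 4.0.16 (quasi-likelihood, TMM, two-sided) in R 4.3.3, over genes that exceeded 1 CPM in all but 1 of the number of libraries in the smaller group, or in more, with 353 ribosomal RNA genes left out, and a gene was called when its p-value, adjusted by Benjamini and Hochberg's procedure, was at most 0.05. Comparisons within a line used the line's 8 libraries, and differences between lines used 24 flox libraries with the library set as a covariate. Intervals cover 95%. Alternatives were DESeq2 1.42.0, limma 3.58.1 (voomWithQualityWeights, the authors' method), DESeq2's size factors (RLE), no filter, a replicate block, other sets of libraries and leaving out each library. Fits of all 24 flox libraries, of 30 or 14 libraries and of wild type without the doubted libraries were added after seeing the data. Tables were made with Python 3.11.15 and pandas 2.3.3. Tests were checked on simulated counts.

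The rule for named genes was to name all 10 members, the called genes of a list of 28 other glycolytic and flanking genes, and the 5 genes closest to the members' mean. The members and lists, cell type markers included, were chosen with earlier results of these data known. GENCODE M21 named 40340 of 41388 identifiers. RefSeq promoters matched all 10 members.

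Replicate numbers follow the library sets in wild-type, Ldha flox and Nampt flox cells, and both Nfkbiz flox libraries of a condition belong to set 2. Deviations of same-numbered libraries from their group means, over 9223 genes, correlated at 0.443 to 0.707 in Ldha flox and 0.507 to 0.657 in Nampt flox cells, so numbers pair there. They ran from -0.387 to 0.129 in Nfkbiz flox cells, so numbers do not pair there. In wild type 5 of 6 were 0.237 to 0.721, and the sixth, -0.287, was between the 2 conditions whose set 2 libraries go against their labels. The labels do not say that replicates are separate cultures, so p-values measure the spread between these libraries, which may be technical.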

Additional observations from a re-analysis of the deposited data

Results flagged for a closer look

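The results below are differences of an effect between 2 groups, each tested by edgeR's quasi-likelihood test with Benjamini-Hochberg adjustment. The response to IL-1b was smaller with Cre than with GFP in Nfkbiz flox cells, by a log2 difference of -1.18 (adjusted p-value 0.000303) for Pfkp, -0.92 (adjusted p-value 0.00706) for Pgk1, -0.92 (adjusted p-value 0.00527) for Gapdh and -0.87 (adjusted p-value 0.0101) for Pkm. It was -0.75 (adjusted p-value 0.00919) for Tpi1, -0.74 (adjusted p-value 0.018) for Gpi1, -0.65 (adjusted p-value 0.029) for Eno1 and -0.50 (adjusted p-value 0.0487) for Pgam1. In Nampt flox cells the same difference was -0.41 (adjusted p-value 0.00683) for Tpi1, -0.38 (adjusted p-value 0.0364) for Pfkl, -0.33 (adjusted p-value 0.0227) for Pgk1 and -0.24 (adjusted p-value 0.043) for Gapdh, and in Ldha flox cells -0.41 (adjusted p-value 0.0319) for Tpi1 and -0.36 (adjusted p-value 0.0481) for Pgk1.

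The effect of Cre with IL-1b differed between Ldha and Nfkbiz flox cells, with the higher value in Ldha flox cells, by 1.30 (adjusted p-value 1.1e-09) on the log2 scale for Pfkp, 0.59 (adjusted p-value 0.000217) for Pkm, 0.56 (adjusted p-value 0.00114) for Pgk1 and 0.46 (adjusted p-value 0.0039) for Gpi1. It was 0.41 (adjusted p-value 0.00141) for Pgam1, 0.40 (adjusted p-value 0.00936) for Aldoa, 0.37 (adjusted p-value 0.00738) for Eno1, 0.36 (adjusted p-value 0.0159) for Gapdh and 0.32 (adjusted p-value 0.0151) for Tpi1. The effect of IL-1b with GFP virus on Pfkp was smaller in Nampt than in Nfkbiz flox cells by -0.52 (adjusted p-value 0.00332). All Nfkbiz flox libraries belong to set 2, so in these comparisons between lines the line and the mix of library sets differ together. The summed fibroblast and cycling lists were also lower in Nfkbiz flox cells than in the other flox lines. With GFP and IL-1b so were the muscle, osteoblast and endothelium lists, while the cartilage and macrophage lists were higher. Of 20 groups of 6 libraries checked (each member in GFP flox libraries, without or with IL-1b), 0 held a library that stood apart by Dixon's 95% value. Each group mixes lines that start at different levels, so the check could hardly flag a single library. Wild-type and Cre libraries were not checked.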

How the results depend on the processing

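Under the alternatives, 270 of 326 counts of called members stayed within 1.5 times the reported count. Outside wild-type cells the share of all genes called is not given for these alternative fits, so their counts have no background beside them. Of 84 calls of a member, 968 of 1184 repeats were still called, and 0 changed sign. Among members not called, 129 of 2076 repeats changed sign. A model of all 32 libraries, in which the wild-type libraries raise the standard errors (0.28 to 0.39 for IL-1b within a flox line, against 0.05 to 0.16), called 0 members for IL-1b in Ldha, Nampt and Nfkbiz flox cells, 0 for Cre without and with IL-1b, 0 for the 3 interactions, 0 for the Cre effect with IL-1b in Ldha against Nfkbiz flox cells and 0 for the IL-1b effect in Nampt against Nfkbiz flox cells. Without the 2 doubted libraries (30 libraries, chosen after seeing the data) it called 0 and 1 for Cre without IL-1b in Ldha and Nampt flox cells, 3 and 3 with IL-1b, and 0, 0 and 5 for the interaction in Ldha, Nampt and Nfkbiz flox cells. A model of the 24 flox libraries called 2 for the Nampt interaction. With the replicate block, which holds the library set, 2 and 7 members were called for Cre without IL-1b in Ldha and Nampt flox cells, and 6 and 7 for the interaction. In Nfkbiz flox cells, where the numbers do not pair the libraries, the block gave 7, 9 and 6 for IL-1b, Cre with IL-1b and the interaction. In wild-type cells it gave 0 in each comparison. It moved no other count by more than 1.5 times. Voom called 5 for Cre without IL-1b in Nampt flox cells and 2 for the IL-1b effect in Ldha against Nfkbiz flox cells. The Ldha interaction gave 4 by DESeq2 and 4 without the filter. The cause of these last changes was not tested.

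Leaving out 1 library, which leaves 1 library in an arm that is assumed to vary like the others, gave 8 to 10 members for IL-1b in Ldha flox cells, 8 in Nampt flox cells, 5 to 6 in Nfkbiz flox cells and 10 over the 3 lines. For Cre without IL-1b it gave 0 in Ldha and 1 to 2 in Nampt flox cells, and for Cre with IL-1b 1 to 4 in Ldha, 4 to 5 in Nampt and 6 to 10 in Nfkbiz flox cells. The interaction gave 0 to 2, 1 to 3 and 1 to 9 members in the same order, and the Cre effect with IL-1b in Ldha against Nfkbiz flox cells 7 to 10. Pfkp remained called in every such fit for Cre with IL-1b, and for the interaction, in Nfkbiz flox cells. With 2 libraries a condition, differences between libraries rather than counting error limit these tests, since each member had at least 1238 reads in each library.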
